A study of Mus musculus with 15 samples.

Results

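Brain RNA of mice given UA after occlusion was compared with brain RNA of mice given vehicle after occlusion. Genes were included when they had at least 10 counts in 3 or more of the 6 libraries compared, which held for 14804 of the 18931 genes in the deposited table. The mice were of the Kunming strain background, an outbred stock, and the tissue label is brain. All groups carry the abbreviation MCAO in their titles, for middle cerebral artery occlusion, a model of ischemic stroke, and the sham group carries it too. The compared groups were UA (3 libraries) and vehicle (3 libraries), with sham and JA (3 libraries each) used for reference. The JU group (3 libraries) entered only the fits over the whole series and the scaling of the CPM levels. The study title names jasminoidin, an iridoid glucoside, and ursodeoxycholic acid, a bile acid, but the labels do not spell out UA, JA or JU. The sources used here do not give brain region, hemisphere, sex, age, dose or time after occlusion. The labels also leave unsaid whether each library is 1 animal, and if they are not, every p-value below reflects library-to-library spread, which may be technical.

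When an artery of the brain is closed and blood later returns, neurons and glia die in the supplied territory. Microglia, the resident macrophages of the brain, and incoming myeloid cells engulf the debris, switch on genes for phagocytosis, lysosomes and lipid storage, and divide. Astrocytes around the injury become reactive, vessel-associated cells deposit matrix, and cholesterol from broken membranes has to be stored, exported or reused.

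The 15 libraries of the series held 18346180 to 20447465 counts each, so depth was similar in all groups, and 3 counts corresponded to between 0.147 and 0.164 CPM (counts scaled to library size). All 6 libraries held the defining transcripts of brain cells: Rbfox3 of neurons at 181 to 263 CPM and Aqp4 of astrocytes at 167 to 295 CPM. In a principal component analysis the first component held 68.6% of the variance and placed vehicle replicate 2 at 72.2, vehicle replicates 1 and 3 at 17.2 and 18.9, and the UA libraries at -46.2, -22.3 and -39.9. Vehicle replicate 2 therefore stood apart from its own group, and UA replicate 2 lay nearest to the vehicle libraries. The within-group SD of log2 CPM had a median of 0.12 in UA and 0.18 in vehicle, and was higher in vehicle for 64.9% of genes. Some tissue markers also differed between libraries of 1 group. Transthyretin (Ttr, made by choroid plexus) was at 9.25 CPM in vehicle replicate 1 against 1100 and 1010 in the other vehicle libraries, and the cerebellar receptor gene Gabra6 was at 8.31 CPM in UA replicate 2 and at 0 in the other UA libraries.

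Genes of activated microglia and macrophages (18 of 26), of cell division (17 of 20) and of fibrous matrix (12 of 21) were lower in UA than in vehicle, and 11 of 24 genes of cholesterol synthesis and 5 of 23 of respiratory complex I were higher. With edgeR's quasi-likelihood test and Benjamini-Hochberg adjustment over all 14804 genes, 2157 genes (14.6%) had an adjusted p under 0.05. Of these, 1145 (7.73% of genes tested) were higher in UA and 1012 (6.84%) were lower. The lower genes moved further: their median log2 fold change was -1.23, and 608 of them differed at least 2-fold, against a median of 0.46 and 18 genes at least 2-fold among the higher ones. Over all genes tested the median log2 fold change was 0.00. UA and vehicle libraries did not overlap for any of the 2157 genes, and they did not overlap for 44.7% of all genes tested. The adjusted p-values were tightly packed: Col10a1 had 0.00962, and the other 2156 called genes lay between 0.0355 and 0.05.

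The number of calls rested on each UA library and on vehicle replicate 3. Without UA replicate 1 or without UA replicate 3 no gene passed (smallest edgeR adjusted p 0.124 and 0.126, with 4121 and 4040 genes at an unadjusted p under 0.05), and without UA replicate 2 there were 5. Without vehicle replicate 3 none passed either (smallest adjusted p 0.0511, 5061 genes unadjusted). Without vehicle replicate 1 there were 2057 calls and without vehicle replicate 2 there were 2411. In each of these fits all 2157 genes kept the sign of their difference. This could not come out otherwise, because their UA and vehicle libraries did not overlap. Vehicle replicate 2 mattered for size: without it the median log2 fold change of the lower genes was -0.94 and of the higher genes 0.41. At the edge of the inclusion rule, 235 genes had 10 counts in exactly 3 libraries, with a median mean count of 10.5, and 245 genes fell just outside with 10 counts in exactly 2 libraries, with a median mean count of 8.33.

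**Figure D1:**
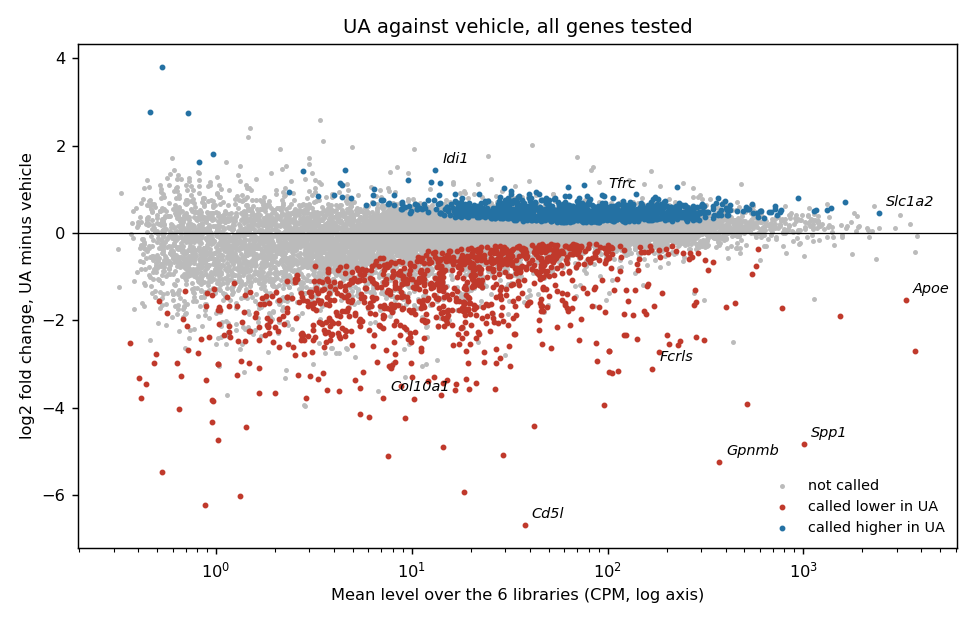
Log2 fold change of UA minus vehicle (vertical axis) against the mean level over the 6 libraries in CPM (horizontal log axis), 1 point for each of the 14804 genes tested, in grey where not called, red where called lower and blue where called higher. The called lower genes reach -6.69 (Cd5l, which lay near the level of 3 counts in UA replicate 1), and the called higher genes have a median of 0.46.

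The base composition of transcripts moved with the difference. The called higher genes had a median GC content of 42.5% and the called lower genes of 53.8%, against 49.9% for all genes tested with an annotated transcript. Genes were sorted by GC content into 10 bins of about equal size. In the bin with the lowest GC content, 443 of 1476 were called higher and 26 lower, and their median log2 fold change was 0.31. In the bin with the highest GC content, 1 was called higher and 154 (10.5%) lower, and the median was -0.14. When the trend with GC content was removed from each library, 1 gene passed (Col10a1, adjusted p 0.00823) and 4103 had an unadjusted p under 0.05, while 2137 of the 2152 called genes with a GC value kept their sign. With that correction and all libraries of the series but JU replicate 1 in a single fit, 1864 genes passed, 753 higher and 1111 lower. JU replicate 1 stood apart, with a mean log2 level of reactive microglia genes above sham of 5.209 against 0.294 and 1.797 in the other JU libraries. With GC correction of the 6 libraries the median log2 fold change of the called higher genes came to 0.25 in place of 0.46, and that of the called lower genes to -1.14 in place of -1.23.

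**Figure D2:**
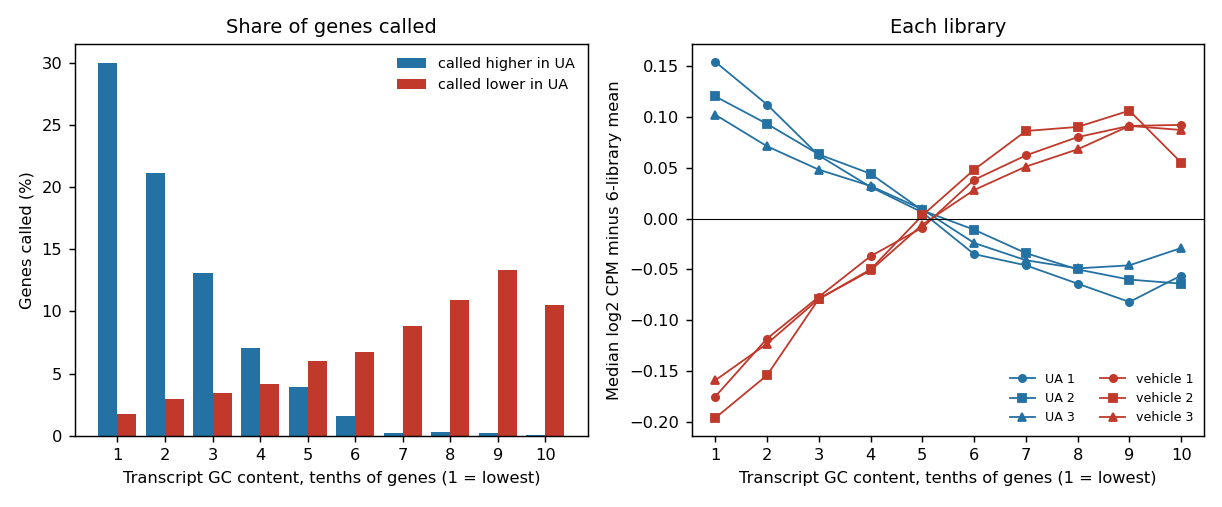
Left, percentage of genes called higher (blue) or lower (red) in UA in each of 10 bins of transcript GC content. Right, for each library the median of log2 CPM minus the mean over the 6 libraries in each bin: in the lowest bin the UA libraries (blue) lie at 0.154, 0.12 and 0.102 and the vehicle libraries (red) at -0.175, -0.196 and -0.159.

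The reactive microglia genes had the lowest median of the 54 gene lists examined. All 26 genes of the reactive microglia list were lower in UA, and 18 of them passed the test (69.2%, against 6.84% of all genes tested). The list had a median log2 fold change of -2.41 against 0.00 for all genes (-1.97 without vehicle replicate 2). In bulk tissue, fewer cells of a type and less RNA per cell cannot be told apart. Spp1, encoding the secreted phosphoprotein osteopontin (chr5:104435118-104441050, plus strand, GRCm38), was at 11.5, 119 and 76.5 CPM in the UA libraries and at 1820, 3020 and 991 CPM in the vehicle libraries. Every vehicle library was above every UA library, and sham lay between 11.1 and 23 CPM. The fitted difference was -4.83 ± 0.88 (log2 fold change ± SE, adjusted p = 0.0355), with a range of -5.48 without UA replicate 2 to -4.31 without UA replicate 1.

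The Spp1 promoter carries the only match among 21 reactive microglia genes with a promoter sequence to the core GAGGAAGT, which is bound by PU.1, the transcription factor that specifies myeloid cells. The stretch is printed because Spp1 was among the genes that fell furthest. It lies on the plus strand of GRCm38.p6 at chr5:104434973-104435030, comes from RefSeq, and has the match in capitals.
Spp1: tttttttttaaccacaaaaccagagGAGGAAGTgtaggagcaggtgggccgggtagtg
The first matched base lies 113 bases before the transcript start in RefSeq, which is not the gene start given above. Both strands of the 250 bases before each start were searched, and 2.78% of 11729 tested genes with a promoter held this motif, 5.41% of the called lower and 2.18% of the called higher genes. A match is a description of letters and does not show binding.

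Gpnmb, a membrane glycoprotein of lipid-loaded phagocytes, was at 3.55, 38.4 and 15.6 CPM in UA and at 533, 1400 and 230 CPM in vehicle. The log2 difference was -5.24 ± 1.02 (adjusted p = 0.0362), -6.25 without UA replicate 2 and -4.31 without vehicle replicate 2. Cd5l, a secreted protein of macrophages, had the lowest fold change of all genes tested, -6.69 ± 1.28 (adjusted p = 0.0359): 0.222, 0.593 and 1.34 CPM in UA and 16.9, 182 and 24.9 CPM in vehicle. In UA replicate 1 it lay near the 0.164 CPM that 3 counts give there, so the size of this difference is uncertain. Vehicle replicate 2 was the highest library for all 3 genes, and Cd5l came to -4.85 without it and to -7.47 without UA replicate 3. The scavenger receptor Msr1 (-5.07 ± 0.92), the lectin Lgals3 (-4.41 ± 0.91), lysozyme Lyz2 (-3.92 ± 0.84), the lysosomal marker Cd68 (-3.15 ± 0.59) and the lipid-sensing receptor Trem2 (-2.51 ± 0.52) fell as well. These 5 estimates shrank to -4.14, -3.04, -2.99, -2.54 and -2.02 without vehicle replicate 2, and without UA replicate 2 Msr1, Lyz2, Cd68 and Trem2 came to -5.75, -4.75, -3.82 and -3.14. Apoe, the lipid carrier that glia secrete, was at 1580, 2000 and 1550 CPM in UA and at 3780, 7130 and 3910 CPM in vehicle, a difference of -1.54 ± 0.27. Per length, in FPKM, Spp1 was below Apoe in every library: at 1160, 1980 and 634 against 1690, 3270 and 1750 in vehicle, and at 7.03, 73.7 and 46.6 against 677, 866 and 662 in UA. Cst7, Clec7a and Itgax, markers of activated microglia, did not pass (adjusted p 0.143, 0.17 and 0.0549). UA replicate 2 was nearest to vehicle: its mean log2 level of the list above sham was 1.859, against 0.368 and 0.800 in the other UA libraries and 3.071, 4.412 and 3.170 in vehicle.

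**Figure D3:**
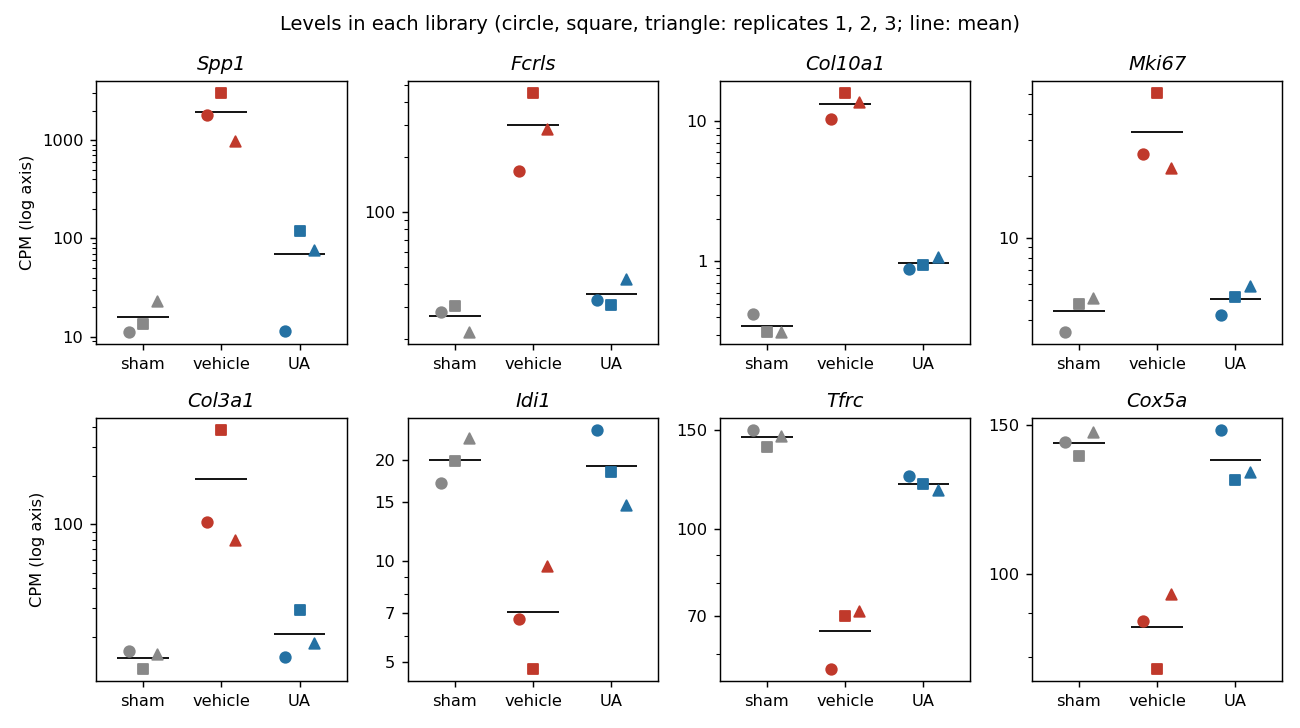
CPM on a log axis in every sham, vehicle and UA library for 8 genes, 1 symbol per library (circle, square and triangle for replicates 1, 2 and 3) with the group mean as a line. UA libraries lie below all vehicle libraries for Spp1, Fcrls, Col10a1, Mki67 and Col3a1 and above them for Idi1, Tfrc and Cox5a.

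Genes that microglia express at rest were lower too. Of 12 homeostatic microglia genes, 9 passed as lower (75.0%, against 6.84% of all genes tested) and none as higher. The median was -1.10, and -0.92 without vehicle replicate 2. Fcrls, a microglial Fc receptor-like gene (chr3:87250758-87263738, minus strand), was at 32.8, 30.6 and 42.5 CPM in UA and at 168, 450 and 286 CPM in vehicle. The UA libraries were close to sham (21.8 to 30.2 CPM), and the difference of -3.11 ± 0.37 was among the 9 lower and 29 higher ones that passed in 13 or more of the 18 other fits. The chemokine receptor Cx3cr1 was at 89.9, 137 and 90.9 CPM in UA and at 207, 373 and 237 in vehicle (-1.37 ± 0.27), and Tmem119 (-1.34 ± 0.27) and the transcription factor Sall1 (-0.87 ± 0.16) fell with it. The purinergic receptor P2ry12 did not pass: it was at 94.0, 109 and 79.7 CPM in UA and at 105, 128 and 143 in vehicle (-0.42 ± 0.15, adjusted p = 0.0975). The 2 sets of libraries overlap for that gene.

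Neutrophil, monocyte and lymphocyte genes gave no call, and border macrophage genes gave 2. None of the 7 neutrophil and monocyte genes tested passed (median -0.93, and 0.15 without vehicle replicate 2, a change of sign), and neither did the 2 lymphocyte genes tested. Cd3e, a T-cell gene, did not reach 10 counts in 3 libraries. The neutrophil genes S100a8 and S100a9 were at 0.238 to 1.3 and 0.714 to 1.4 CPM in vehicle and at 0.444 to 1.96 and 0.388 to 3.04 CPM in UA. Their estimates were 0.46 and 0.67, and of the 7 estimates 3 were above 0 and 4 below. Those below were Arg1 (-3.94, edgeR adjusted p = 0.0629), Chil3 (-2.31), Ccr2 (-0.95) and Plac8 (-0.93). Of 8 border macrophage genes, Ms4a6c (-3.29 ± 0.72, or -3.89 without UA replicate 2 and -2.26 without vehicle replicate 2) and the transglutaminase subunit F13a1 (-1.58 ± 0.38) fell, whereas Mrc1 (adjusted p 0.23) and Cd163 (0.334) did not pass.

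Complement genes fell in 9 of 13 cases (69.2%, against 6.84% of all genes tested) and none rose (median -1.70). The subunits of C1q, the starter of the classical pathway, moved together: C1qa -2.47 ± 0.53, C1qb -2.54 ± 0.46 and C1qc -2.72 ± 0.49. C1qb was at 39.6, 92.1 and 49.9 CPM in UA and at 210, 553 and 287 in vehicle, with no overlap. Without UA replicate 2 C1qa came to -3.10, and without vehicle replicate 2 C1qa and C1qc came to -1.96 and -2.12. The anaphylatoxin receptors C3ar1 (-3.57 ± 0.82, or -4.52 without UA replicate 2 and -2.68 without vehicle replicate 2) and C5ar1 (-3.26 ± 0.68, or -2.49 without vehicle replicate 2) fell, and C3 itself did not pass (-1.63, adjusted p = 0.132). Reactive microglia transcripts moved with these genes. Their mean log2 level against the sham mean was 0.368 to 1.859 in UA, 3.071 to 4.412 in vehicle and -0.065 to 0.058 in sham. Their part in the complement result was not tested.

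Among 15 cytokine and NF-kB genes, 5 fell and 1 rose. The share called was 40.0%, against 14.6% of all genes tested. Tnf, a central inflammatory cytokine, had 0, 4 and 3 counts in the UA libraries and 23, 24 and 27 in the vehicle libraries, too few for a fold change. Tgfb1 (-2.05 ± 0.40), Tnf receptor Tnfrsf1a (-1.55 ± 0.33), and the NF-kB subunits Nfkb1 (-0.88 ± 0.19) and Rela (-0.62 ± 0.13) fell. Il18, a cytokine released by inflammasomes, was the exception and rose by 0.79 ± 0.20. Il1b was at 0.333, 1.29 and 0.516 CPM in UA and at 0.664, 1.06 and 0.571 in vehicle, and the libraries overlapped (adjusted p = 0.907). Of 9 inflammasome genes 5 fell (55.6%), among them the sensor Nlrp3 (-2.03 ± 0.41), the adaptor Pycard (-1.76 ± 0.36) and the pore-forming Gsdmd (-1.60 ± 0.32). Casp1, the protease that the sensor and adaptor activate, did not pass (-0.30, adjusted p = 0.618). Of 10 chemokine genes only Ccl4 passed (-3.60 ± 0.83, with -4.80 without UA replicate 2 and -2.69 without vehicle replicate 2). Of 12 Toll-like receptor pathway genes, the endosomal receptors Tlr7 (-1.74 ± 0.42) and Tlr13 (-2.28 ± 0.54, or -1.49 without vehicle replicate 2) and the adaptor Myd88 (-1.01 ± 0.24) fell. None of 13 interferon response genes passed, although all 13 estimates were below 0 (median -0.49), and 3 of 12 antigen presentation genes fell.

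Phagocyte lysosome and lipid storage genes fell with the microglial ones. In the lysosome list 9 of 15 genes fell and 1 rose (median -1.18), a share of 66.7% called against 14.6% of all genes tested. Progranulin Grn (-2.46 ± 0.53, or -3.01 without UA replicate 2 and -1.85 without vehicle replicate 2) and the hydrolase Hexa (-1.67 ± 0.36) fell, and the proton pump subunit Atp6v1a rose by 0.36 ± 0.09. In the cholesterol efflux and storage list 7 of 12 fell (58.3%, against 6.84% of all genes tested) and none rose (median -0.90). Plin2, the coat protein of lipid droplets, was at 9.04, 16.3 and 9.96 CPM in UA and at 129, 349 and 58.6 in vehicle (-3.94 ± 0.69, or -2.99 without vehicle replicate 2). The groups did not overlap, and sham lay between 7.29 and 9.53 CPM. Ch25h, which makes 25-hydroxycholesterol, fell by 3.44 ± 0.80 (by 5.15 without UA replicate 2), and the exporters Abca1 (-1.86 ± 0.42, or -1.25 without vehicle replicate 2) and Abcg1 (-0.62 ± 0.15) fell.

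Enzymes of cholesterol synthesis moved the other way. Of 24 genes of the pathway 11 rose (45.8%, against 7.73% of all genes tested) and none fell. Estimates were above 0 for 23 of 24, and the median was 0.61 (0.52 without vehicle replicate 2). With GC correction of the 6 libraries the median was 0.65. The calls were less steady: 13 genes passed with all libraries but JU replicate 1 in a single fit, and 2 with GC correction added. With all 15 libraries in a single fit 0 passed. Idi1, the isoprenoid isomerase of the pathway (chr13:8885501-8892451, plus strand), was at 24.7, 18.5 and 14.7 CPM in UA, at 6.74, 4.77 and 9.71 in vehicle and at 17.1 to 23.3 in sham. All UA libraries were above all vehicle libraries, and the difference was 1.44 ± 0.29 (adjusted p = 0.0362). Msmo1 (1.09 ± 0.25), Cyp51 (1.04 ± 0.24), Sqle (0.84 ± 0.18), Insig1, the sterol-responsive anchor of the regulator SCAP (0.76 ± 0.16), Nsdhl (0.74 ± 0.16) and Sc5d (0.72 ± 0.14) rose, as did Fdft1, Fdps and Hsd17b7. Hmgcs1 was at 446, 339 and 314 CPM in UA and at 164, 118 and 253 in vehicle but did not pass (1.03 ± 0.28, adjusted p = 0.0535). Stard4, a cytosolic cholesterol transporter outside the list, rose by 1.03 ± 0.18, with 36.5, 41.7 and 41.1 CPM in UA and 16.8, 16.1 and 25.2 in vehicle. Vehicle replicate 3 was the highest vehicle library for Idi1, Msmo1, Cyp51, Hmgcs1 and Stard4.

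Promoters of the pathway hold the CCAAT box, the binding letters of NF-Y, a factor that works with the sterol regulators of this pathway. Of the 17 cholesterol synthesis genes with a promoter sequence, 16 (94.1%) held it in the 250 bases before the start on either strand, against 40.1% of 11729 tested genes with a promoter, 38.1% of the called higher and 38.7% of the called lower genes. Shown are stretches of 3 genes that rose, Sc5d (chr9:42264301-42264349, minus strand), Insig1 (chr5:28071171-28071225, plus strand) and Nsdhl (chrX:72918387-72918520, plus strand), from RefSeq, build GRCm38.p6. Capitals mark ATTGG, which is CCAAT read on the opposite strand.
Sc5d: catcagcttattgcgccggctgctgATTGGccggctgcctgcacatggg
Insig1: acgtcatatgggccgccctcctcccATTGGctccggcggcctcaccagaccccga
Nsdhl: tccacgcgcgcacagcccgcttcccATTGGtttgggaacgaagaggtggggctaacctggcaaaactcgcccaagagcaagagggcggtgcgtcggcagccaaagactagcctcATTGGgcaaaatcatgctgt
Only genes whose window touched no annotated exon of the same strand are shown. The match is in the letters, and no binding was measured. A sterol element, taken as 1 fixed sequence, was searched in the same promoters. It was found in 0 of the 17 cholesterol synthesis genes, 0 of 918 called higher and 1 of 814 called lower genes. Only 8 of 11729 tested genes (0.0682%) held it, so its absence from 17 promoters cannot tell whether sterol regulators act there.

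Of 20 cell division genes, 17 fell (85.0%, against 6.84% of all genes tested) and none rose. The median was -2.07 (-1.56 without vehicle replicate 2). Mki67, the proliferation marker Ki-67 (chr7:135689784-135716361, minus strand), was at 4.21, 5.14 and 5.83 CPM in UA and at 25.6, 50.7 and 21.9 in vehicle. The groups did not overlap, and sham lay between 3.48 and 5.08 CPM (-2.70 ± 0.35, adjusted p = 0.0355). The topoisomerase Top2a (-2.13 ± 0.37), the mitotic kinase Cdk1 (-2.58 ± 0.50, or -1.97 without vehicle replicate 2) and the cyclin Ccnb1 (-2.13 ± 0.36) fell. Pcna, the replication clamp, did not pass (-0.31, adjusted p = 0.21).

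Fibrous matrix genes fell in 12 of 21 cases (57.1%, against 6.84% of all genes tested) and none rose. The median was -2.00, and -1.10 without vehicle replicate 2, which had the highest values. Collagens Col1a1 and Col3a1 fell by 3.18 ± 0.69 and 3.20 ± 0.67, and by 2.07 and 2.13 without vehicle replicate 2. Col3a1 was at 14.9, 29.5 and 18.3 CPM in UA and at 103, 387 and 79.8 in vehicle. Fibronectin Fn1 was at 56.1, 116 and 104 CPM in UA and at 444, 723 and 262 in vehicle (-2.38 ± 0.43). The macrophage elastase Mmp12 fell by 5.92 ± 1.20 and the protease Mmp3 by 3.85 ± 0.60 (by 6.82 and 4.94 without UA replicate 2, and Mmp12 by 5.03 without vehicle replicate 2). Col10a1, which encodes the collagen chain of hypertrophic cartilage, had the smallest adjusted p of the whole comparison. It was at 0.887, 0.94 and 1.08 CPM in UA, at 10.3, 15.9 and 13.7 in vehicle and at 0.313 to 0.422 in sham (chr10:34389981-34397085, plus strand). The libraries of each group lay close together, the groups did not overlap, the difference was -3.78 ± 0.24 (adjusted p = 0.00962), and it came to between -3.94 and -3.63 with any 1 library left out.

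Some genes of the vessel wall and the ventricle lining fell. Of 9 mural cell genes 4 fell (44.4%, against 6.84% of all genes tested). Among the 4 were the pericyte receptor Pdgfrb (-1.15 ± 0.26) and Anpep (-2.04 ± 0.48, or -1.27 without vehicle replicate 2). Of 10 ependymal genes 4 fell (40.0%), led by the cilia regulator Foxj1 (-1.26 ± 0.27). None of 14 endothelial genes passed (median -0.13), with 3 estimates above 0 and 11 below. Cldn5 of the blood-brain barrier was at -0.22 (edgeR adjusted p = 0.22), Pecam1 at -0.63 (0.0607) and Cdh5 at -0.85 (0.0689). With all libraries but JU replicate 1 in a single fit 4 passed. Evc and Evc2, parts of the ciliary hedgehog complex, fell by 1.06 ± 0.15 and 1.24 ± 0.25. Of 14 cilium and hedgehog genes 3 fell (21.4%).

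Among reactive astrocyte genes 5 of 20 fell and none rose, with all 20 estimates below 0 (median -1.36, -0.85 without vehicle replicate 2). Vim, an intermediate filament gene, fell by 2.34 ± 0.52 (1.54 without vehicle replicate 2), and Emp1 and Cd44 fell by 2.56 ± 0.60 and 1.71 ± 0.44 (1.54 and 1.10 without vehicle replicate 2). Gfap, the main astrocyte filament gene, was at 394, 957 and 422 CPM in UA and at 1060, 2530 and 1400 in vehicle. It did not overlap between groups but did not pass (-1.51 ± 0.45, adjusted p = 0.0643). Of 13 homeostatic astrocyte genes 1 rose (7.69%, against 7.73% of all genes tested), and the median was -0.05. The gene that rose was the glutamate transporter Slc1a2 (chr2:102658659-102790784, plus strand). Slc1a2 was at 2970, 2770 and 2740 CPM in UA and at 2040, 1980 and 2120 in vehicle (0.46 ± 0.09, adjusted p = 0.0362). Oligodendrocyte genes gave no call in 12, with a median of 0.11.

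**Figure D4:**
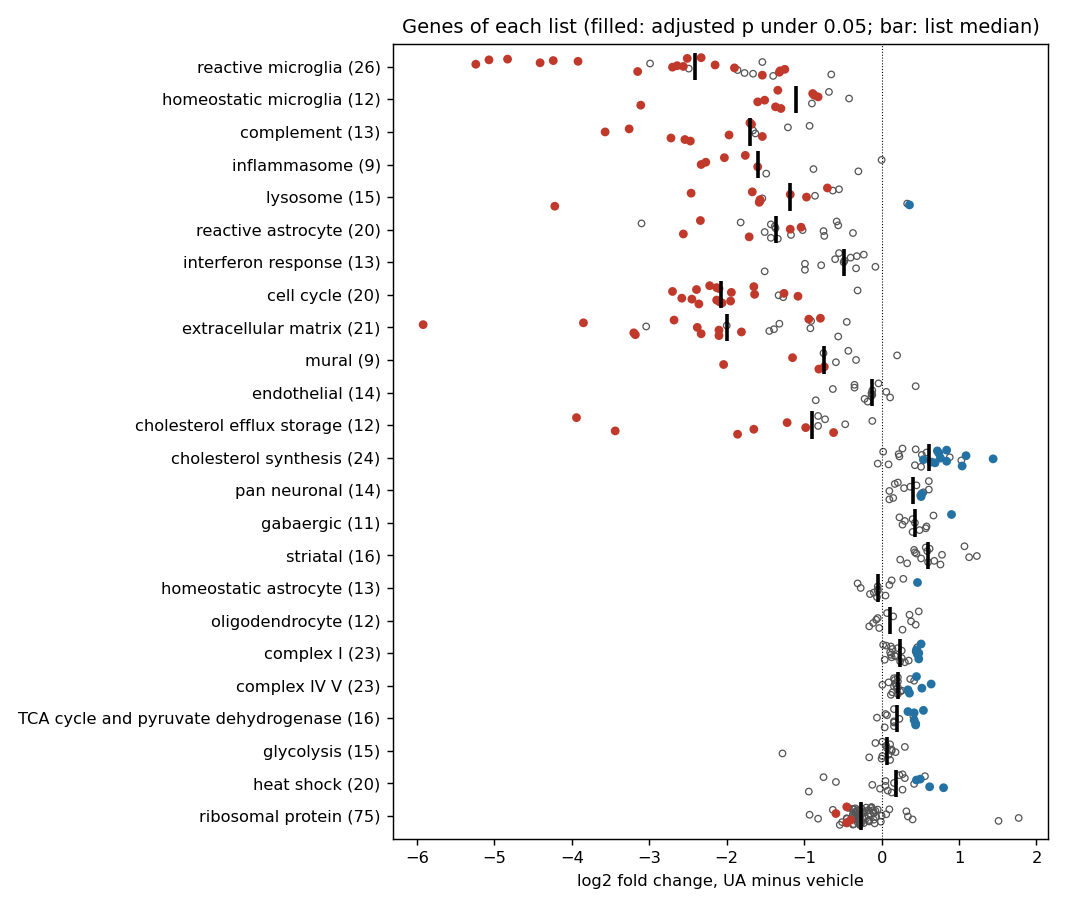
Log2 fold change of UA minus vehicle (horizontal axis) for the tested members of 24 gene lists (1 symbol per gene, filled where the adjusted p was under 0.05, number of genes in brackets), with the median of each list as a bar and a dotted line at 0. The median is -2.41 for reactive microglia, -2.07 for cell cycle, -2.00 for extracellular matrix and 0.61 for cholesterol synthesis genes.

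Some respiratory chain genes rose and none fell. Of 23 complex I genes 5 rose (median 0.24), of 12 complex II and III genes 2 (median 0.12) and of 23 complex IV and V genes 5 (median 0.21). Shares of 21.7%, 16.7% and 21.7% compare with 7.73% of all genes called higher. Cox5a, a subunit of cytochrome c oxidase (chr9:57521274-57532426, plus strand), was at 148, 129 and 132 CPM in UA and at 88.1, 77.4 and 94.8 in vehicle. The groups did not overlap, and the difference was 0.64 ± 0.10 (adjusted p = 0.0355). Uqcrb of complex III was at 99.5, 83.2 and 79.6 CPM in UA and at 51.5, 52.6 and 52.3 in vehicle (0.74 ± 0.10), and Ndufb1 of complex I, which was not in the list, was at 46.5, 43.3 and 37.8 against 23.3, 20.4 and 21.6 (0.95 ± 0.10). The GC content of Uqcrb and Cox5a was 40.4% and 41.6%, and with GC correction they came to 0.46 and 0.39 and did not pass (adjusted p 0.0845 and 0.0847). In a list of 16 genes of the citric acid cycle and of pyruvate dehydrogenase, the enzyme complex that feeds it, 6 rose (37.5%) and none fell. Those of the cycle were Sucla2 (0.54 ± 0.10) and Idh3a (0.42 ± 0.09), those of pyruvate dehydrogenase were Dlat (0.44 ± 0.08), Pdha1 (0.42 ± 0.09) and Pdhb (0.34 ± 0.08), and Dld (0.44 ± 0.08) encodes a subunit that both use. None of 15 glycolysis genes passed. Of 19 genes of mitochondrial import and quality control 4 rose (21.1%) and none fell. Among the 4 were the import receptor Tomm70a (0.62 ± 0.15) and the fission gene Dnm1l (0.52 ± 0.11).

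Among heat shock and chaperone genes 4 of 20 rose: Chordc1 (0.80 ± 0.18), Dnaja1 (0.62 ± 0.13), Hspa4l (0.50 ± 0.13) and Hspa4 (0.45 ± 0.10). The stress-inducible Hspa1a did not pass (-0.59, adjusted p = 0.351). The heat shock element GAANNTTC or TTCNNGAA was found in the promoters of 7 of 14 genes of the list, of which Dnaja1 was the 1 that rose, against 12.1% of tested genes with a promoter, 11.2% of the called higher and 12.5% of the called lower genes. Iron genes split: the uptake receptor Tfrc (0.86 ± 0.11) and the iron regulatory protein gene Ireb2 (0.44 ± 0.07) rose, and Hmox1 (-2.32 ± 0.57), Ftl1 (-1.72 ± 0.40, or -1.08 without vehicle replicate 2), Steap3 (-1.77 ± 0.44, or -1.05 without vehicle replicate 2) and Trf (-0.85 ± 0.17) fell. Tfrc (chr16:32608920-32632794, plus strand) was at 124, 120 and 117 CPM in UA, at 56.4, 70.0 and 71.6 in vehicle and at 140 to 150 in sham. UA replicates lay above every vehicle replicate and below every sham replicate. Of 39 proteasome genes 7 rose, Psma6 (0.38 ± 0.07) among them, and Psmb8, the immunoproteasome subunit, fell by 1.46 ± 0.35. The share of proteasome genes called in either direction was 20.5%, against 14.6% of all genes tested. Of 75 cytosolic ribosomal protein genes 5 fell (6.67%, against 6.84% of all genes tested) and none rose (median -0.27).

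Some neuronal genes rose and none of the general, glutamatergic and GABAergic lists fell, at shares of 14.3%, 16.7% and 9.09% called higher against 7.73% of all genes. All 14 general neuronal genes had estimates above 0 (median 0.41), but only Map2 (0.51 ± 0.13) and Nefl (0.52 ± 0.14) passed. Snap25, a synaptic vesicle fusion gene, was at 2880, 2660 and 2770 CPM in UA and at 1940, 1300 and 2190 in vehicle, did not overlap and did not pass (adjusted p = 0.0643). Among glutamatergic genes Slc17a6 (0.65 ± 0.10) and Grin2a (0.53 ± 0.14) rose, and among GABAergic genes the neuropeptide Vip (0.89 ± 0.19) did. None of 16 striatal genes passed (median 0.60, 0.31 without vehicle replicate 2): the level of these genes was -0.206 on the log2 scale against sham in vehicle replicate 1 and -1.789 and -1.395 in the other vehicle libraries. Of 15 immediate early genes 13 had estimates above 0 (median 0.65) and in 9 all UA libraries lay above all vehicle libraries, against 23.3% of all genes, but none passed as higher. Atf3 fell by 3.31 ± 0.74 (by 4.22 without UA replicate 2 and by 2.41 without vehicle replicate 2). Fos was at 34.1, 30.5 and 42.2 CPM in UA and at 7.56, 8.67 and 28.8 in vehicle (1.23, adjusted p = 0.127), where vehicle replicate 3 came close to UA. Red blood cell genes had estimates above 0 with none passing: Hba-a1 was at 46.0, 35.2 and 116 CPM in UA and at 4.75, 1.93 and 41.6 in vehicle.

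Of 28 bile acid genes 13 passed the inclusion rule, and 1 of these rose and 2 fell. The share called was 23.1%, against 14.6% of all genes tested. The exporter Abcc3 fell by 3.45 ± 0.57, with 1.94, 3.26 and 3.35 CPM in UA and 18, 58.1 and 16.8 in vehicle (-2.61 without vehicle replicate 2). The receptor S1pr2 fell by 1.48 ± 0.39, and Cyp7b1, a hydroxylase of the alternative bile acid pathway, rose by 0.45 ± 0.12 (adjusted p = 0.0489). The bile acid receptors Nr1h4 and Gpbar1 did not reach the inclusion rule: Nr1h4 lay at or below 0.626 CPM and Gpbar1 at or below 0.103 CPM in every UA and vehicle library.

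Compared directly with JA, UA showed no call. With edgeR's quasi-likelihood test 0 of 14594 genes (0.0%) had an adjusted p under 0.05, 487 had an unadjusted p under 0.05, and DESeq2 called 2. The intervals of the differences were wide. Spp1 differed by -2.82 (approximate 95% interval -7.50 to 1.85), Fcrls by -0.84 (-1.99 to 0.31), Mki67 by -0.61 (-1.89 to 0.68) and Idi1 by 0.40 (-0.65 to 1.45). For the steadier genes they were narrower: Tfrc 0.07 (-0.19 to 0.32), Slc1a2 -0.03 (-0.21 to 0.15) and Hspd1 0.01 (-0.13 to 0.16). JA replicate 1 stood apart, with a mean log2 level of reactive microglia genes above sham of 2.914 against 0.340 and 0.111 in the other JA libraries. The smallest p belonged to Evc2, at 6.38, 8.46 and 8.05 CPM in UA and at 18.3, 21 and 15.5 in JA, a difference of -1.26 ± 0.16 (adjusted p = 0.468).

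**Figure D5:**
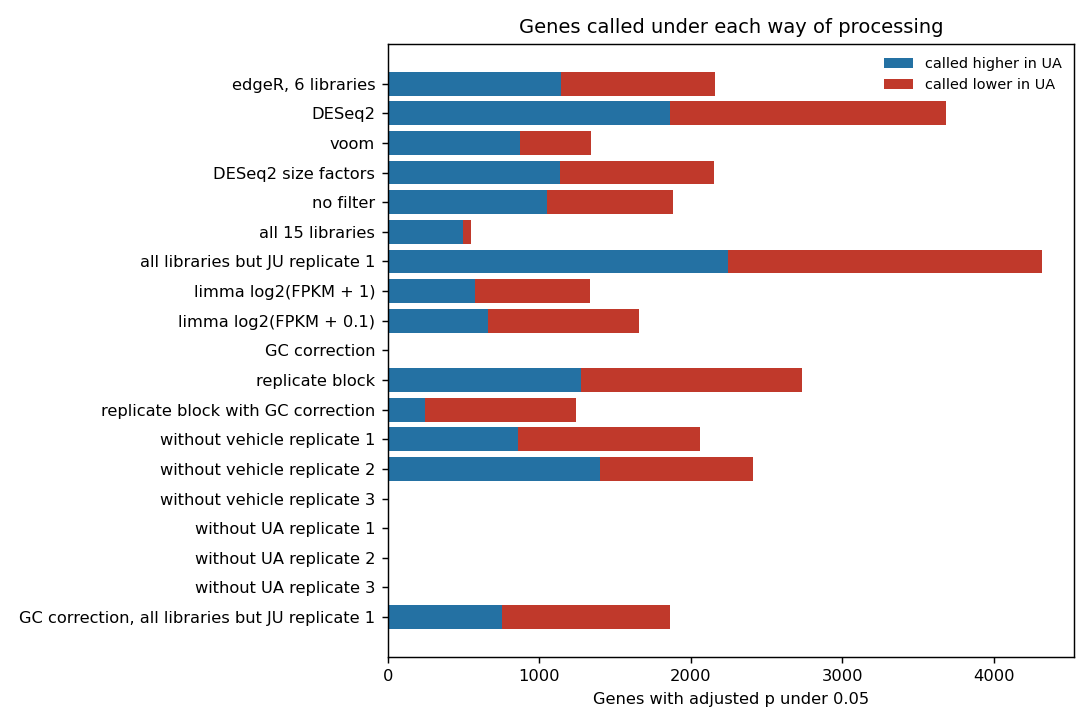
Genes with an adjusted p under 0.05 (horizontal axis) for UA against vehicle under each way of processing, with the part called higher in blue and lower in red. The number runs from 0 (without vehicle replicate 3, UA replicate 1 or UA replicate 3) to 4315 (all libraries but JU replicate 1 in a single fit).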

How the data were processed

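The labels place 3 libraries in each of 5 groups. The raw counts per gene and the FPKM values were deposited by the authors in 1 table. Trimmomatic, HISAT2, Cufflinks, DESeq and the builds GRCm38 and mm10 are named, without roles or versions, per the submitters' processing notes. The library kit marks strand, but no source used here gives the strand setting, counting tool or annotation, so overlapping, antisense and near-identical genes are uncertain. In the table, 1 count column matched no sample label and was not used.

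UA and vehicle were compared with edgeR 4.0.16 (R 4.3.3) by its quasi-likelihood test on the counts of the 6 libraries with TMM scaling, for genes with at least 10 counts in 3 or more libraries, with Benjamini-Hochberg adjustment and a threshold of 0.05. UA and JA were compared the same way. CPM levels use library totals scaled by TMM over all 15 libraries, and the CPM of 3 counts uses plain totals. Log2 values behind the principal components, the SD and the correlations of deviations use a prior count of 2. Log2 levels of lists and of GC bins add a small constant to the CPM. Alternatives used DESeq2 1.42.0, voom and limma 3.58.1 (on log2(FPKM + 1) and log2(FPKM + 0.1)), other scaling and filters, all libraries, a lowess correction for GC content (span 0.3), a replicate block, and each replicate left out. Intervals of differences are approximate 95% intervals: they use the SE of the same fit and, for all genes, 1 t quantile from its median degrees of freedom. For some genes, Spp1 among them, they are narrower than the p-value of the gene implies.

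Genes named are the 15 with the largest change in each direction among called genes of at least 5 CPM that did not overlap, key genes of the lists, and up to 3 list members with the smallest p. Further list members were named after their values were seen. Some genes that the rule covers are not reported here. The members and the 54 lists (912 genes, 866 tested) were chosen with earlier results of these data known, so no list was tested. Coordinates are from GRCm38, promoter sequences from RefSeq.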

Additional observations from a re-analysis of the deposited data

How the results depend on the processing

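The number of genes called varied widely between settings. The direction of the called genes had little room to change, because their UA and vehicle libraries did not overlap. The called genes that could be tested kept their sign in every alternative other than 3 with GC correction, where 2137 (GC correction), 2138 (block with GC correction) and 2136 (GC correction without JU replicate 1) of the 2152 tested there did. The genes called numbered 3686 with DESeq2 (1859 higher, 1827 lower), 1338 with voom (870 higher, 468 lower), 549 with all 15 libraries in a single fit (493 higher, 56 lower) and 4315 without JU replicate 1 in that fit (2247 higher, 2068 lower). On log2(FPKM + 1) limma called 1331 (573 higher, 758 lower) and on log2(FPKM + 0.1) 1659 (659 higher, 1000 lower). GC correction left 1 (0 higher, 1 lower), and with all libraries but JU replicate 1, an alternative chosen after seeing the data, 1864 (753 higher, 1111 lower). Leaving out 1 library gave 0 to 2411 calls, 0 to 1399 higher and 0 to 1195 lower.

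Same-numbered UA and vehicle libraries correlated in their deviations by 0.0459, 0.266 and 0.0621 (n = 14804 genes), so the numbers were not taken to pair the samples, and 1 of the 3 UA libraries correlated best with its own number. The fit with a replicate block called 2730 genes, 1275 higher and 1455 lower, and the block with GC correction called 1240, 242 higher and 998 lower. For UA against JA, DESeq2 called 2 genes, 0 higher and 2 lower, and the other settings called none. Depth limits the genes near 3 counts a library, such as Tnf, for which counts and no fold are given. The median of the neutrophil and monocyte genes turned to 0.23 and 0.28 in limma on log2(FPKM + 1) and log2(FPKM + 0.1), and leaving out 1 library gave -1.40 (without UA replicate 3) to 0.15 (without vehicle replicate 2). The median of the homeostatic astrocyte genes came to 0.01 in each of the 3 GC-corrected fits and to between -0.09 and 0.04 with 1 library left out, and that of the oligodendrocyte genes to between -0.01 and 0.21. With 1 library left out Casp1 came to between -0.67 and 0.11 and Il1b to between -0.85 and 0.24, neither called in the main comparison.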

Other observations

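Lists of stress pathways held calls in both directions, at shares not far from that of all genes or below it. The share called was 18.8% in the ER stress list and 18.8% in the NRF2 list, against 14.6% of all genes tested. Of 16 ER stress and integrated stress response genes, the pseudokinase Trib3 (-1.75 ± 0.40) and Sdf2l1 (-1.07 ± 0.22) fell and asparagine synthetase Asns rose by 0.38 ± 0.09, while the transcription factor gene Atf4 did not pass (0.08, edgeR adjusted p = 0.584). Of 18 p53 and apoptosis genes, Trp53 (-0.57 ± 0.14) and the pro-apoptotic Bcl2l11 (-1.27 ± 0.32) fell. Of 16 NRF2 and antioxidant genes, the peroxidase Gpx1 (-0.88 ± 0.22) and the thioredoxin reductase Txnrd1 (-0.33 ± 0.09) fell and the mitochondrial dismutase Sod2 rose by 0.41 ± 0.11. Of 10 hypoxia genes only Bnip3 passed (0.49 ± 0.12), with Vegfa at 0.53 and an adjusted p of 0.0524. Of 13 clock genes only Clock passed (0.48 ± 0.09), at 95.5, 99.1 and 103 CPM in UA and 72.9, 62.5 and 76.4 in vehicle.

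Oligodendrocyte precursor genes gave 2 calls in 9, both lower (22.2%, against 6.84% of all genes tested). They were the proteoglycan Cspg4 (-1.46 ± 0.27), which pericytes express too, and Bmp4 (-0.73 ± 0.18). The precursor receptor Pdgfra was at 74.4, 77.9 and 71.0 CPM in UA and at 77.6, 93.4 and 76.9 in vehicle, and did not pass (-0.16, adjusted p = 0.27). Of 16 neurotrophic genes only the receptor Ntrk3 passed (0.48 ± 0.13), a share of 6.25% against 7.73% of all genes called higher. Bdnf was at 24.6, 21.6 and 27.3 CPM in UA and at 8.53, 9.68 and 19.1 in vehicle without overlap (0.97, adjusted p = 0.0694). Igf1, which microglia secrete, did not pass (-1.86, adjusted p = 0.0555). Of 75 mitochondrial ribosomal protein genes 6 rose (8.0%, against 7.73% of all genes tested) and none fell (median 0.09).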
